A study of Rattus norvegicus with 4 samples.

Results

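The mitochondrial ribosomal protein genes of S16 cells were taken as all gene symbols that begin with Mrpl or Mrps followed by a digit. This rule found 73 of the 30708 genes listed, 44 with an Mrpl symbol (large subunit) and 29 with an Mrps symbol (small subunit). S16 cells are an immortalized line of rat Schwann cells, labelled as a myelinating Schwann cell. Poly(A) RNA was sequenced from 2 unmodified populations, one at passage 9, from which the study's deletion mutants were derived, and one at passage 39. The cells had received no treatment or edit that the labels give. Each population was grown in culture and is a single culture of 1 cell line, so it stands for S16 cells and not for Schwann cells of nerve. Each had 2 libraries, numbered 1 and 2, which the labels call technical replicates. The authors deposited RPKM values, reads for each kilobase of a gene in every 1000000 reads, which are scaled by length and can therefore be set side by side between genes. Totals recovered from the values were between 34246093 and 41382234 reads per library, with 79.4% to 81.5% of them in genes. All 10 Schwann cell markers were at 1 RPKM or more. Of the other lists at that level were 3 of 6 fibroblast markers, with Col1a1 at 3588 RPKM, 1 of 7 neuron, 1 of 5 melanocyte, 1 of 5 immune and 0 of 4 endothelial markers. The part of other cell types in the results was not tested.

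Mitochondrial ribosomes translate the few messages encoded by mitochondrial DNA, nearly all of them for membrane subunits of the respiratory chain and ATP synthase. Their ribosomal RNA is made inside the organelle, but every protein of the large subunit, which forms the peptide bond, and of the small subunit, which decodes the message, is encoded in the nucleus, translated in the cytosol and imported. Some of these proteins descend from bacterial ribosomal proteins and others are found only in mitochondria. In peripheral nerve, Schwann cells with defective mitochondria lose the support they give to axons, so the genes that build the organelle are of interest in this cell type.

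The 4 libraries did not fall together as their labels describe, which bears on every value below. For the members, reads of libraries with the same number but of different passages differed by about counting error. The mean chi-square per gene was 0.853 for number 1 and 1.04 for number 2. Counting error alone gives 1 where a gene's reads were recovered in full, and less where they were not. The 2 libraries labelled as technical replicates of 1 population differed much more, with a mean chi-square per gene of 39.5 at passage 9 and 34.97 at passage 39. The same held over all genes compared, with 1.15 and 1.43 for libraries of the same number, against 78.5 and 74.8 for libraries of the same passage. The values below are therefore given for each library, and both by passage and by number. The paper's methods state that 2 technical replicates of the mutant and unmodified lines were pooled and sequenced over 2 lanes. Whether the library numbers stand for lanes was not tested. Which of the labels, the number or the passage, marks the separate cultures could not be told from the values.

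To describe where these genes start, RefSeq promoter sequences, which run from 250 bases before the annotated start to 50 bases after it, were matched by symbol in the GRCr8 build. Of the 73 members, 57 had an entry. The promoters were searched on both strands for 4 motifs, GCGCATGC of NRF1, CCGGAAG of ETS factors such as GABPA, AAGATGGCG of YY1 and TATAAA of the TATA box. NRF1 and GABPA are textbook activators of nuclear genes for mitochondria. NRF1 matches on the 2 strands overlap where the letters form a palindrome, so a site can count on both strands. A match is a description of the letters and not evidence that a factor binds.

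The ETS motif was the most frequent of the 4 motifs in the member promoters, and the YY1 motif had the largest ratio to its share elsewhere. The ETS motif was in 19 of 57 promoters (33.3%), compared with 19.5% of the 7690 tested genes that had an entry and 11.2% of all 18999 protein-coding promoters. The YY1 motif was in 9 promoters (15.8%), compared with 4.40% and 2.29%, and the middle base of all 9 matches lay between 13 bases before and 34 bases after the start, with a median of 23 after it. The NRF1 motif was in 5 promoters (8.77%), compared with 5.74% and 3.22%. A TATA motif was in 7 promoters (12.3%), compared with 5.97% and 13.1%, and all 7 matches lay at least 79 bases before the start. The matches of Mrpl46 and Mrps11, whose divergent starts lie 234 bp apart, are the same letters counted in both promoters. A ratio of observed to expected CpG over 0.6 was found in 50 promoters (87.7%), compared with 78.8% and 46.5%. Among the groups most like the members, the ETS motif was in 31.7% of the promoters of cytosolic ribosomal proteins (19 of 60) and in 15 of 50 promoters of oxidative phosphorylation genes, whereas the YY1 motif was in 2 of 60 and 8 of 50. These shares were not tested.

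**Figure D1:**
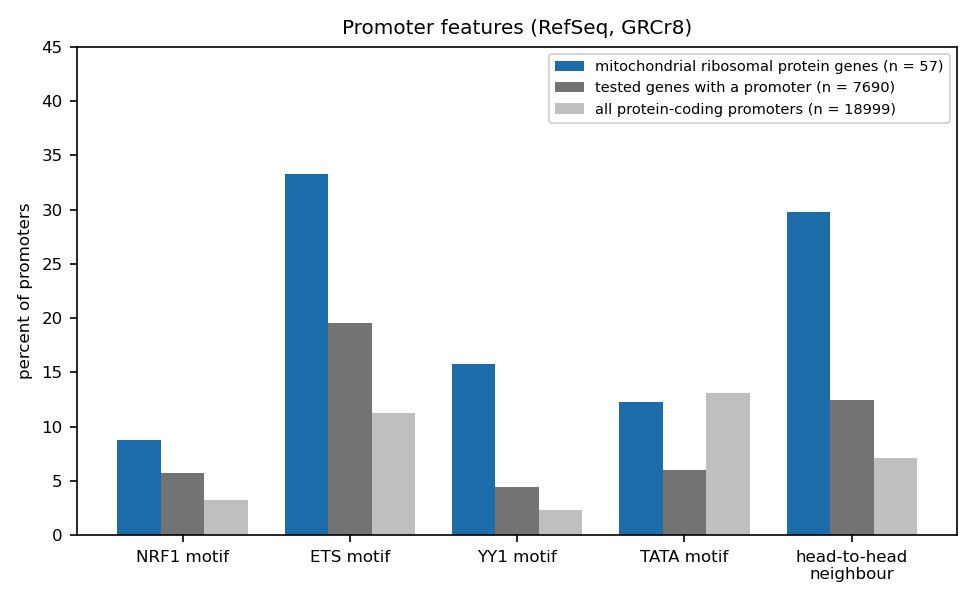
Percent of promoters (vertical axis) with each motif, or with a divergent neighbour starting within 1000 bp, for the 57 promoters of mitochondrial ribosomal protein genes, the 7690 promoters of tested genes and all 18999 protein-coding promoters. The ETS motif reached 33.3% and the head-to-head neighbours 29.8% in the member promoters, each above the other bars of its group, whereas the TATA motif was at 12.3%, below the 13.1% of all promoters.

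Promoters are printed for the highest large subunit gene and a further large subunit gene among the highest, for small subunit genes that hold several motifs, and for a pair of divergent starts, with the letters of each motif in capitals. Mrpl17, the member with the highest RPKM and a relative of bacterial protein L17, holds NRF1 letters at 2 places (chr1:169575650-169575949, minus strand). Mrpl33, a small protein of bacterial descent, holds ETS letters whose middle base is 6 bases before the start (chr6:30553938-30554237, minus strand). Mrps10 holds ETS letters at the start and YY1 letters after it (chr9:21122404-21122703, minus strand). Mrps18b holds NRF1 letters next to ETS letters on the other strand, read as CTTCCGG (chr20:2842756-2843055, plus strand). Mrpl46 (chr1:142116981-142117280, minus strand) holds YY1 letters after its start, and TATA letters, read as TTTATA on the other strand, far before it. Mrpl51 (chr4:159677738-159678037, plus strand) holds none of the 4 motifs in this window, so it has no capitals, and is shown for its pattern across libraries described below. Mrpl46 and Mrpl51 were chosen after their values and neighbours were seen.
Mrpl17: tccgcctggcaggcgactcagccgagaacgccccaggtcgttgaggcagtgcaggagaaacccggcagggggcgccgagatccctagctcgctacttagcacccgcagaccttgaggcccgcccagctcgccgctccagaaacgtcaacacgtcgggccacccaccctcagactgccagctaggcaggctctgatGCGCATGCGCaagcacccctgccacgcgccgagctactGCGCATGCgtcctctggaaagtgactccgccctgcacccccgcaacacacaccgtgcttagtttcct
Mrpl33: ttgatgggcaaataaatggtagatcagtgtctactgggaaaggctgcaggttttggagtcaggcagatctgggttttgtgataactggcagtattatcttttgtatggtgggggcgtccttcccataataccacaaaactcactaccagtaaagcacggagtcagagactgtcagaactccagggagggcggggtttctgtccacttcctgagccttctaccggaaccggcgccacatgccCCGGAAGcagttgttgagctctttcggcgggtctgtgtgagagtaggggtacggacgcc
Mrps10: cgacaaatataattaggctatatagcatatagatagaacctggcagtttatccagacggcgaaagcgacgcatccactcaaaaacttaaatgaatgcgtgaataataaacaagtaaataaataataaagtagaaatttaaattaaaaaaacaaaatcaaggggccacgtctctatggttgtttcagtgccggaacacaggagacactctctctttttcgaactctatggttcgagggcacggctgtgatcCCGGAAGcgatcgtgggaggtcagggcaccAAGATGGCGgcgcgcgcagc
Mrps18b: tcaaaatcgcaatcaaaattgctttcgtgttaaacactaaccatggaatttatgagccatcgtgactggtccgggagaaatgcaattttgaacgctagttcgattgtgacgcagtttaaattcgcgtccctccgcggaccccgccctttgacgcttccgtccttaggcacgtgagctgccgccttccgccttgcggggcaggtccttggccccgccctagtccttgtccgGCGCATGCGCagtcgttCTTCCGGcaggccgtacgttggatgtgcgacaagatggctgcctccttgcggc
Mrpl46: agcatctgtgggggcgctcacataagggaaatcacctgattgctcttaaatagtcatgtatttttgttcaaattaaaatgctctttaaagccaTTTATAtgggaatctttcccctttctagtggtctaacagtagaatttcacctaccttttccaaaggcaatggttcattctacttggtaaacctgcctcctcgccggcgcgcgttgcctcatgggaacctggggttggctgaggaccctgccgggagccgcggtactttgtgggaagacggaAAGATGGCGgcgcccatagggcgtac
Mrpl51: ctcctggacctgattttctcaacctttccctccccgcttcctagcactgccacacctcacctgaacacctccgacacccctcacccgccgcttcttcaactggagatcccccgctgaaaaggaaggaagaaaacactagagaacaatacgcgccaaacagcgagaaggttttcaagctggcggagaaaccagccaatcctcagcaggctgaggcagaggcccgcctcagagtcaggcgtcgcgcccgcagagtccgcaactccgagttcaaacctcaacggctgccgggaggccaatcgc

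Nearly all members were expressed, most of them within a narrow band. A minimum of 1 RPKM, taken on the mean of both populations, was passed by 69 of 73 members, 41 large and 28 small, out of 11025 genes that passed in all. Their median was 23.6 RPKM and the middle 50% lay between 16.9 and 40.7 RPKM, compared with a median of 11.1 RPKM over all genes tested. Of the 69, 63 lay above that median of all genes and 50 lay within 2-fold of the members' own median. The extremes, Mrpl17 and Mrpl40, were 40.7-fold apart. The order of the members was nearly the same in every library, with a Spearman correlation of at least 0.974 between any 2 libraries (across 69 genes, which share lengths and gene models, given as a description). The members' summed RPKM was 1867 in number 1 and 2381 in number 2 at passage 9, and 1861 and 2354 at passage 39, or 0.591%, 0.678%, 0.589% and 0.675% of the RPKM sum of the library.

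Of the 4 members that did not pass, Mrpl30, Mrpl36 and Mrps21l were listed at 0 in all 4 libraries. Mrpl1, whose protein forms part of the flexible stalk by which spent tRNA leaves in the bacterial relative, was listed at 0.0233 RPKM in number 1 of passage 9, where 1 read was recovered, and at 0 in the other 3 libraries. Named pseudogenes in RefSeq share the name of 23 members, among them Mrpl1, Mrpl30, Mrpl17 and Mrps25. Reads that matched several places were not counted by the authors, so the levels of these members are uncertain. The 21 of them that were tested had a median of 17.1 RPKM, compared with 24.95 RPKM for the 48 without one. Whether shared reads lowered any value was not tested.

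The genes of the large subunit had the higher levels. Their median was 26.9 RPKM, compared with 21.9 RPKM for the small subunit, a log2 ratio of 0.30 with no test, because genes are not replicates. Per library, the large subunit median was 24.7 and 30.6 RPKM in numbers 1 and 2 of passage 9 and, at passage 39, 24.8 and 31.9 RPKM. The small subunit median was 19.2 and 24.3 RPKM at passage 9 and, at passage 39, 19.1 and 24.6 RPKM. Thus the large subunit lay above the small subunit in all 4 libraries. The symbols are older than the structures, and 2 Mrps proteins, Mrps18a and Mrps30, sit in the large subunit, whereas Mrps36 belongs to the 2-oxoglutarate dehydrogenase complex. With these moved or left out, a choice made after seeing the data, the medians were 26.9 RPKM over 43 genes and 22.1 RPKM over 25 genes.

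Mrpl17 was the highest large subunit gene, at 105 RPKM in number 1 and 120 RPKM in number 2 of passage 9, and 102 and 119 RPKM at passage 39. Its mean was 111 ± 1.69 RPKM (SD, n = 2 populations), which ranked it 482 among all genes listed. In number 1 of passage 9 its 95% exact Clopper-Pearson interval was 102 to 108 RPKM, which covers counting error only, like every such interval here. Both libraries numbered 1 lay below both libraries numbered 2. Every SD of a level here is over the 2 passage means, so it leaves out this gap between numbers. As the label that marks the cultures could not be told, such an SD may not give the spread between cultures. Next came Mrpl13, a relative of bacterial L13, with 73.4 and 95.5 RPKM at passage 9 and, at passage 39, 73.6 and 97.7 RPKM. Mrpl33 was at 73.3 and 91.8 RPKM and then at 74.9 and 91.8 RPKM. These neighbours in the order, with means of 85.0 ± 0.860 and 82.9 ± 0.578 RPKM (SD, n = 2 populations), were closer to each other than either was to itself between numbers. Mrpl54, found only in mitochondria, was at 77.0 ± 1.81 RPKM and Mrpl23, whose bacterial relative lies beside the exit of the peptide tunnel, at 70.3 ± 2.09 RPKM.

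At the other end, Mrpl40 had the lowest level of any member tested, at 2.32 and 3.27 RPKM in numbers 1 and 2 of passage 9 and, at passage 39, 2.24 and 3.10 RPKM. Its human relative lies in the region lost in the 22q11 deletion syndrome. Mrpl50 followed at 5.94 ± 0.166 RPKM and Mrpl37 at 9.94 ± 0.0163 RPKM (SD, n = 2 populations). Both are found only in mitochondria. Mrpl51, the median member of the large subunit, was at 26.9 ± 0.406 RPKM. Mrpl12, whose protein forms the stalk that recruits translation factors and which also binds the mitochondrial RNA polymerase, stood at 46.9 ± 0.188 RPKM.

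In the small subunit, Mrps25 was the highest, at 51.6 and 72.3 RPKM in numbers 1 and 2 of passage 9 and, at passage 39, 52.4 and 71.0 RPKM. Its protein is found only in mitochondria. Mrps7, of bacterial descent and a binder of the ribosomal RNA of the small subunit, was at 47.2 and 66.5 RPKM and then at 47.6 and 63.3 RPKM. Mrps26 and Mrps33 had means of 50.6 ± 0.123 and 44.3 ± 0.838 RPKM (SD, n = 2 populations). The lowest were Mrps28 at 8.40 ± 0.938 RPKM, Mrps31 at 9.36 ± 0.0845 RPKM and Mrps10 at 12.7 ± 0.0720 RPKM. The small subunit thus spanned less than the large subunit, with no gene near the levels of Mrpl17 or Mrpl40.

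The S18 paralogs, relatives of 1 bacterial protein, had 3 distinct levels. Mrps18a, which sits in the large subunit, was at 32.8 ± 1.54 RPKM (SD, n = 2 populations). Mrps18b was at 24.4 ± 0.0851 RPKM and Mrps18c at 16.7 ± 0.416 RPKM, both proteins of the small subunit. The order Mrps18a, Mrps18b, Mrps18c was the same in each of the 4 libraries, with 28.2 to 37.5 RPKM, 21.4 to 27.6 RPKM and 14.9 to 19.0 RPKM. Named pseudogenes exist for Mrps18b and Mrps18c.

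**Figure D2:**
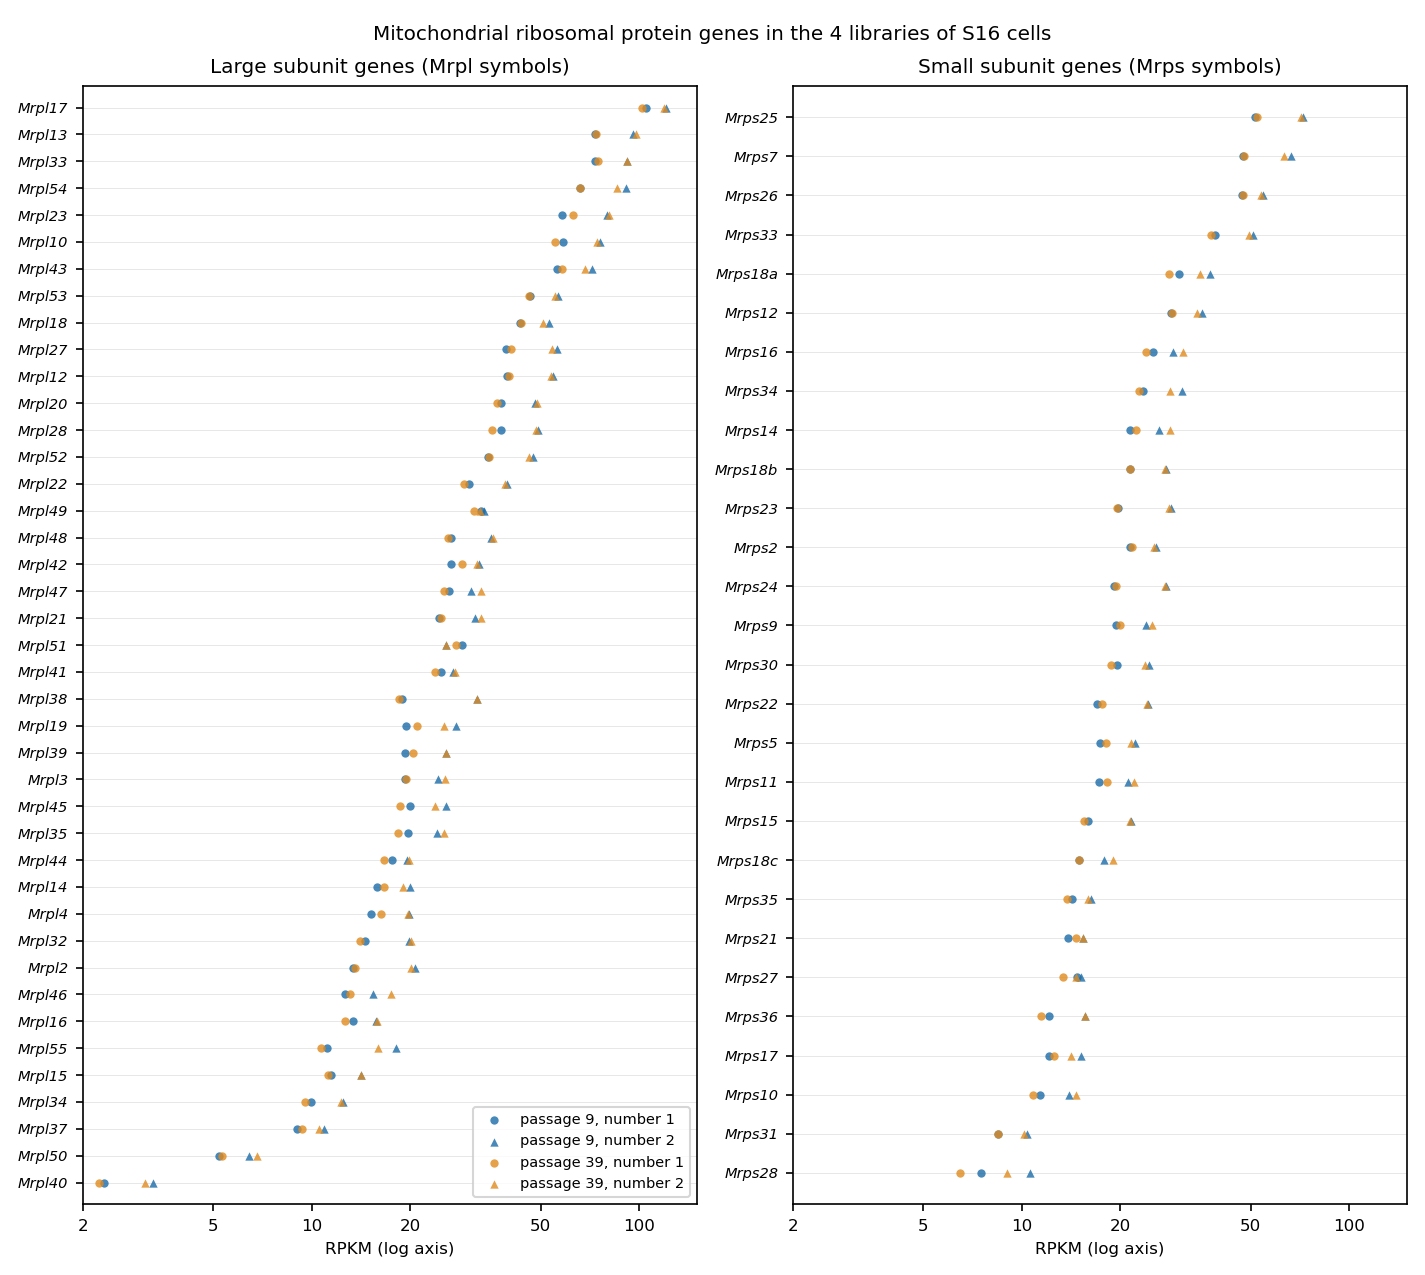
RPKM on a log axis for the 69 members tested (rows, ordered by mean), large subunit on the left and small subunit on the right, with 1 point per library. Circles are libraries numbered 1, triangles libraries numbered 2, blue is passage 9 and orange passage 39. In 66 of 69 rows both triangles lie to the right of both circles, Mrpl17 leads at 111 RPKM, and Mrpl51 has its circles on the right.

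To compare the passages, the RPKM values of the 2 libraries of a passage were averaged and set against each other on the log2(RPKM + 1) scale, which understates changes of low genes. The members hardly moved. Their median difference, passage 39 minus passage 9, was -0.0112, compared with -0.00215 over all genes tested, and single members ran from -0.20 in Mrps28 to 0.11 in Mrpl46. In number, 21 members were higher and 48 lower at passage 39, beside 5269 higher and 5756 lower of the 11025 genes tested. These directions were not tested. No member differed by 0.32 or more on the log2 scale, where 0.118% of all genes tested did. Without number 1 of passage 9, or without number 2 of passage 39, there were 3 such members, and without number 2 of passage 9 there was 1, but a passage then held 1 number only. With 1 population per passage there is no replicate check of the passage and no p-value.

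Mrps28, a relative of bacterial S1, had 7.51 and 10.6 RPKM in numbers 1 and 2 of passage 9 and, at passage 39, 6.48 and 9.01 RPKM. It was lower at passage 39 within each number, but the libraries of the passages overlapped. The ratio of reads, passage 39 to passage 9, was 0.862 in number 1, with an exact 95% interval of 0.698 to 1.06, and 0.848 in number 2, with an interval of 0.712 to 1.01. Both intervals include 1, so the difference was not detectable at this depth in either pair.

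Mrpl46, the largest rise and named after its values were seen, was at 12.6 and 15.4 RPKM at passage 9 and, at passage 39, 13.1 and 17.4 RPKM. Its ratio was 1.03 (0.918 to 1.17) in number 1 and 1.13 (1.02 to 1.26) in number 2, by the same exact interval. No member had intervals off 1 on the same side in both numbers, where 0.444% of all genes tested did. In number 1 alone the interval was off 1 for 1 member, Mrps27, beside 6.26% of all genes tested. In number 2 alone it was off 1 for 4, Mrpl45, Mrpl46, Mrpl55 and Mrps14, beside 8.86% of all genes tested, of which those outside the rule for named genes were chosen after seeing their values. For 2 members, Mrpl49 and Mrps27, both libraries of passage 39 lay below both of passage 9 and none lay wholly above, compared with 6.21% of all genes tested in either direction. Mrpl49 was at 32.9 and 33.6 RPKM at passage 9 and, at passage 39, 31.2 and 32.7 RPKM, and Mrps27, an RNA-binding protein of the small subunit, at 14.8 and 15.2 RPKM and then at 13.4 and 14.6 RPKM.

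By library number nearly all members rose. Libraries numbered 2 were compared with libraries numbered 1 by limma on log2(RPKM + 1) over all 11025 genes, with 1 library of each population per number, Benjamini-Hochberg adjustment over all genes and an adjusted p under 0.05 as the call. These p-values measure only the spread between libraries of the same number, which may be technical. The members' median difference was 0.33 on this scale, with the middle 50% between 0.27 and 0.40, compared with a median of 0.10 and a middle 50% from -0.10 to 0.27 over all genes tested. Of 69 members, 66 were called higher and 1 lower in number 2, beside 49.4% of all genes called higher and 24.4% called lower. In the large subunit 39 of 41 were called higher and 1 lower, with a median difference of 0.35. In the small subunit 27 of 28 were called higher and all 28 differences were above 0, with a median of 0.31.

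The rise was small in size and regular. In 66 members both number 2 libraries lay above both number 1 libraries, beside 57.2% of all genes. In 35 members the rise reached 0.32 on the log2 scale, beside 19.3% of all genes, and none reached 2-fold. The sign of the difference was the same in both populations for 69 of 69 members. Over all 11025 genes tested, number 2 lay wholly above number 1 in 6302 and wholly below in 3368, which also gives 1 sign. The size of the difference in the 2 populations correlated with a Spearman rho of 0.736 across the 69 genes, which share library preparation and lengths. Libraries of the same number differed by about counting error, so neither agreement is separate support for the rise. A rescaling of the libraries moved the median of all genes by up to 0.13, so the members are best read against that median. Their own median lay 0.22 above it as deposited, 0.22 above it after scaling to a common sum and 0.22 above it after median-ratio scaling. With the common sum, 3249 of all genes were called higher and 4229 lower, in place of 5441 and 2686, and 58 members were called higher and 2 lower. With median-ratio scaling the counts were 4097 and 3572 genes, and 64 and 1 members.

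**Figure D3:**
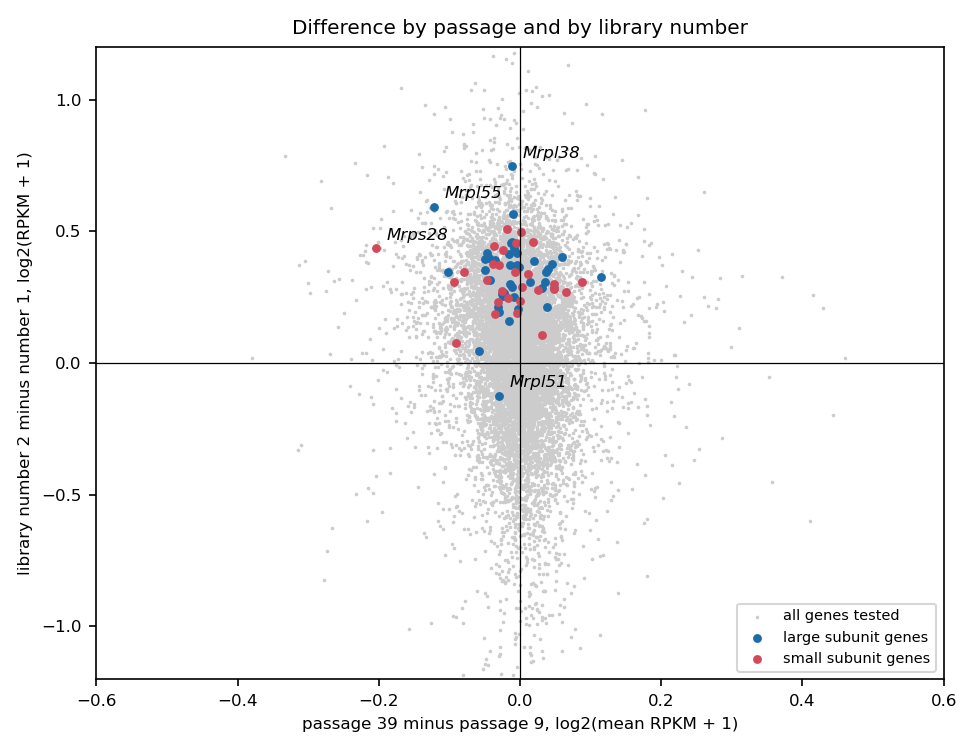
Difference by passage (horizontal axis, passage 39 minus passage 9) against difference by library number (vertical axis, number 2 minus number 1), both on the log2(RPKM + 1) scale, for all genes tested in grey and the 69 members in blue (large) and red (small); some grey points lie outside the axes. The members lie between -0.20 and 0.11 on the passage axis, and 68 of 69 lie above 0 on the number axis, with Mrpl51 below it.

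Mrpl38, found only in mitochondria, rose most. It was at 18.8 RPKM in number 1 and 32.0 RPKM in number 2 of passage 9 and, at passage 39, 18.5 and 31.9 RPKM. The number 2 libraries were 1.71-fold higher, a difference of 0.75 ± 0.03 (log2, SE; limma adjusted p = 3.86e-07), and 98.9% of all genes tested had a smaller one. Within each number the passages were nearly equal.

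Mrpl55, an animal-specific protein, was at 11.1 and 18.02 RPKM in numbers 1 and 2 of passage 9 and, at passage 39, 10.7 and 15.97 RPKM, a difference of 0.59 ± 0.05 (log2, SE; limma adjusted p = 3.30e-05). Mrpl2, whose bacterial relative L2 borders the centre where peptide bonds form, was at 13.3 and 20.6 RPKM and then at 13.6 and 20.1 RPKM, a difference of 0.57 ± 0.03 (limma adjusted p = 2.58e-06). In the small subunit Mrps23 and Mrps24 rose most, by 0.51 and 0.50 on the log2 scale. Mrps24 is a relative of bacterial S3, which lines the channel through which the message enters, and Mrps23 is found only in mitochondria. Mrpl17, the highest member, rose by 0.21 ± 0.02 (limma adjusted p = 6.64e-05). Across the 69 members the Spearman correlation of level and difference was 0.160.

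Mrpl51 was the 1 member called lower. It was at 28.7 RPKM in number 1 and 25.6 RPKM in number 2 of passage 9 and, at passage 39, 27.5 and 25.7 RPKM. The groups did not overlap, and the difference of -0.12 ± 0.03 (log2, SE; limma adjusted p = 0.00613) corresponded to a ratio of 0.914. Mrpl49 was not called, with a difference of 0.0465 (limma adjusted p = 0.227), but was called lower with the common sum (-0.0980, limma adjusted p = 0.0296) and was at -0.0405 with median-ratio scaling. Mrps27 was not called either, with 0.0764 (limma adjusted p = 0.176), and turned to -0.0638 and -0.00751 under the same scalings.

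Gene length moved with the number difference over all genes and is given beside it. The length recovered from the RPKM values is the smallest that fits them, so a gene's true length can be a multiple of it. The shortest recovered length of all genes tested was 5 bp. The members' median was 1064 bp, from 353 bp in Mrpl41 to 4040 bp in Mrpl37, compared with 2621 bp over all genes tested. By recovered length, all members but Mrpl37 and Mrpl51, 67 of 69, were shorter than the median gene. When all genes were placed in 20 bins of recovered length, the bin medians of the difference fell from 0.28 in the shortest bin to -0.22 in the longest. The Spearman correlation of length and difference was -0.415 across 11025 genes and -0.151 across the 69 members, and that of length and RPKM level was -0.585 across the members.

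After the median of its length bin was subtracted from each gene, the members' median difference fell from 0.33 to 0.11, with 58 of 69 still above 0. By limma on these corrected values, 40 members were called higher and 4 lower, beside 31.2% of all genes called higher and 32.7% called lower. The 4 were Mrpl51 at -0.24, Mrpl49 at -0.23, Mrps21 at -0.16 and Mrpl41 at -0.12, of which Mrps21 and Mrpl41 were named after their values were seen. Mrpl38 kept 0.51, Mrpl55 0.37 and Mrpl2 0.34, whereas Mrpl17 came to -0.0113 and Mrps26 to -0.0341. The part of length in the members' rise beyond these values was not tested.

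**Figure D4:**
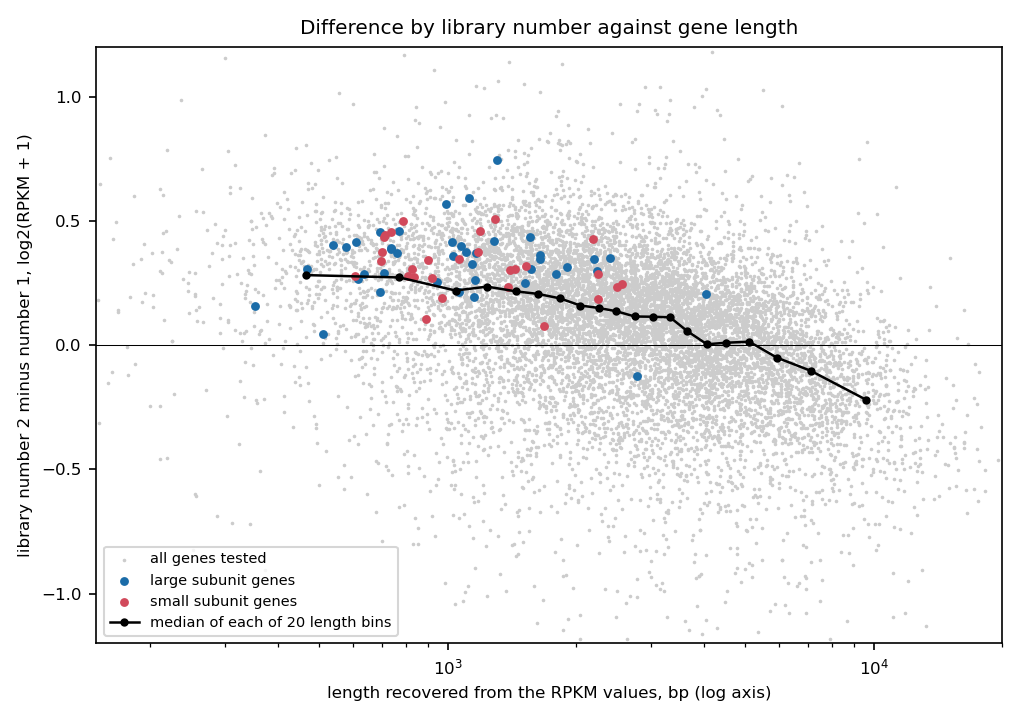
Library number difference (vertical axis, number 2 minus number 1, log2(RPKM + 1)) against recovered gene length in bp (horizontal log axis). All genes tested are in grey, large subunit genes in blue and small subunit genes in red. Some grey points lie outside the axes. The black line joins the medians of 20 length bins, which fall from 0.28 to -0.22, and 58 of 69 members lie above the median of their bin.

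Mitochondrial ribosomal proteins listed under other names were mostly called higher in number 2 as well. Mrpl9, Mrpl11 and Mrpl24 are written in lower case in the files and so were outside the rule. All 3 were called higher in number 2, at 37.2 and 49.8 RPKM in numbers 1 and 2 of passage 9 for mrpl9, 21.6 and 29.9 RPKM for mrpl11, and 14.6 and 23.4 RPKM for mrpl24. Their differences were 0.39, 0.49 and 0.62 (limma adjusted p = 1.28e-05, 3.79e-06 and 1.67e-06). Of 7 proteins with other symbols, 6 were called higher, beside 49.4% of all genes tested, and the median difference of the 7 was 0.34. Gadd45gip1, which also acts in insertion of new proteins into the inner membrane, was the highest of them, at 117 and 158 RPKM at passage 9 and, at passage 39, 116 and 152 RPKM. Chchd1 was at 42.3 RPKM, Aurkaip1 at 29.0 RPKM, Ict1, a peptidyl-tRNA hydrolase within the large subunit, at 34.2 RPKM, Mrp63 at 18.3 RPKM and Dap3, a GTP-binding protein of the small subunit, at 17.0 RPKM. Ptcd3, an RNA-binding protein of the small subunit, was at 22.2 and 22.2 RPKM at passage 9 and, at passage 39, 21.8 and 22.4 RPKM, and was not called (difference 0.0161, limma adjusted p = 0.613). With the common sum Ptcd3 was called lower (-0.128, limma adjusted p = 0.00524), and with median-ratio scaling it was at -0.0697 (limma adjusted p = 0.0530).

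The machinery around the mitochondrial ribosome was lower in level and also moved by number. The counts below stand beside 49.4% of all genes tested called higher and 24.4% called lower. With the common sum, 3249 of 11025 genes were called higher and 4229 lower, and with median-ratio scaling 4097 and 3572. Of 17 translation factor genes tested, 15 were called higher and 1 lower (8 and 1 with the common sum, 11 and 1 with median-ratio scaling), with a median level of 13.8 RPKM and a median difference of 0.24. Among them Oxa1l, the insertase that receives the new proteins, was at 54.5 RPKM and Tufm, the elongation factor that brings tRNA, at 47.6 RPKM, and both rose (0.33 and 0.40). Gfm2, a factor that recycles ribosomes, fell by 0.35 on the log2 scale (limma adjusted p = 0.000188), and was named after its value was seen. Of 29 assembly factor genes, 22 were called higher and 1 lower (13 and 2 with the common sum, 17 and 1 with median-ratio scaling), with medians of 8.92 RPKM and 0.23. C1qbp led them at 125.4 RPKM. Of 20 genes for expression of mitochondrial DNA, 16 were called higher and all 20 differences were above 0 (11 called higher and 1 lower with the common sum, 14 higher with median-ratio scaling), with medians of 7.67 RPKM and 0.26. Of 15 mitochondrial aminoacyl-tRNA synthetase genes, which charge tRNA inside the organelle, 11 were called higher (7 with the common sum, 9 with median-ratio scaling), with medians of 5.11 RPKM and 0.23.

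Regulators of mitochondrial biogenesis were called in both directions. Of 7 tested, 3 were called higher and 1 lower (3 and 2 with the common sum), with a median difference of 0.0552, which was -0.0826 with the common sum and -0.0255 with median-ratio scaling. Gabpa, an ETS factor, was the highest at 19.0 RPKM and was called lower in number 2 (-0.14, limma adjusted p = 0.0143). Pprc1 and Myc, both transcription regulators, were called higher, by 0.25 and 0.57. Over all genes tested, 49.4% were called higher and 24.4% lower, and 7 genes are too few to set apart from these shares. Of the 69 members, 66 were called higher.

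The 2 larger gene groups most like the members were the cytosolic ribosomal protein genes and the nuclear genes of oxidative phosphorylation. Over all genes tested, 49.4% were called higher and 7071 of 11025 differences were above 0. Of 75 cytosolic ribosomal protein genes tested, 69 were called higher (64 with the common sum) and all 75 differences were above 0. Their medians were 64.0 RPKM and 0.46. Of 75 oxidative phosphorylation genes, 72 were called higher and all 75 differences were above 0 (54 called higher and 2 lower with the common sum), with medians of 76.9 RPKM and 0.31. Against the median of all genes, the members lay 0.22, the cytosolic group 0.36 and the oxidative phosphorylation group 0.21 higher, and 0.11, 0.19 and 0.05 higher after the length correction. The members were thus the lowest of these 3 groups in level, and lay between the other two in the size of the difference. The oxidative phosphorylation levels were led by Atp5b at 914 RPKM.

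**Figure D5:**
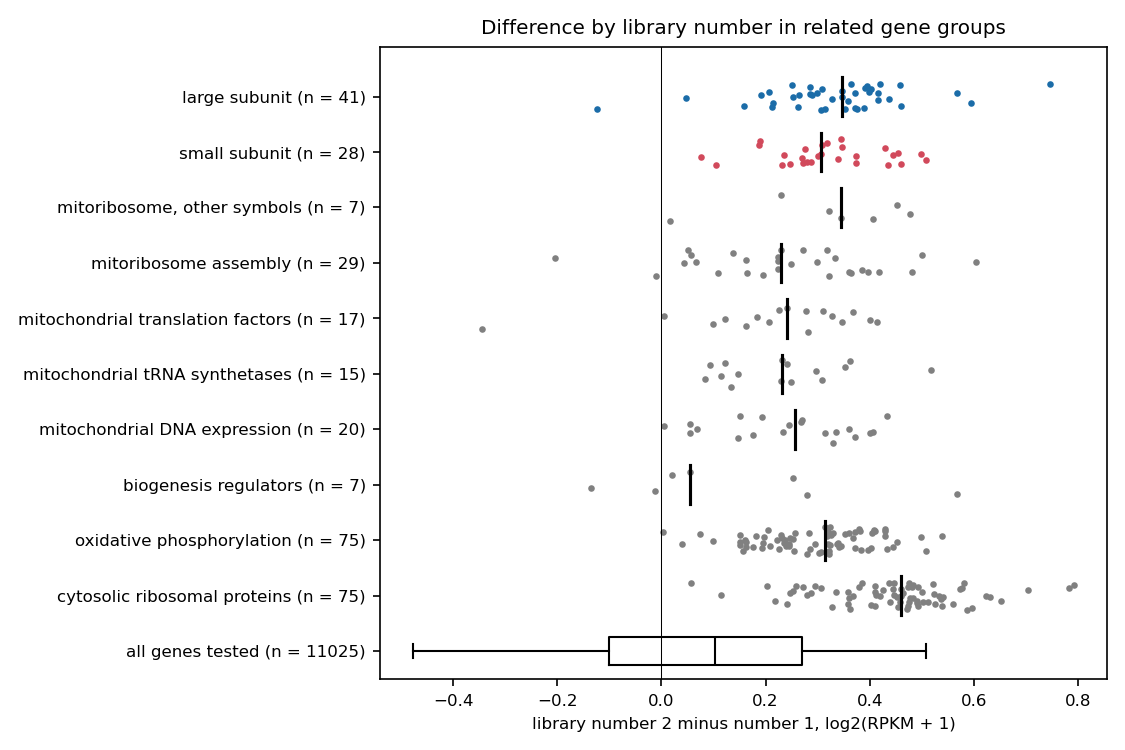
Library number difference (horizontal axis, number 2 minus number 1, log2(RPKM + 1)) for each gene (points) of the large and small subunit, of the related lists and of the larger groups, with medians as black bars; for all 11025 genes tested the box gives the middle 50% and the whiskers the 5th and 95th percentiles. Medians run from 0.06 in the biogenesis regulators to 0.46 in the cytosolic ribosomal proteins, with 0.35 and 0.31 in the 2 subunits and 0.10 over all genes.

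Many members start back to back with another gene. In RefSeq (GRCr8), 17 of the 57 members with an entry (29.8%) had a protein-coding neighbour on the opposite strand that started within 1000 bp in the other direction, compared with 12.4% of tested genes and 7.12% of all protein-coding promoters. The count was 15 of 50 for oxidative phosphorylation genes and 5 of 60 for cytosolic ribosomal protein genes. Mrpl46 and Mrps11, 1 member of each subunit, start 234 bp apart. Mrps11 was at 17.2 and 21.1 RPKM at passage 9 and, at passage 39, 18.2 and 22.0 RPKM, and its difference by number was 0.27, compared with 0.33 for Mrpl46. Mrpl47 starts 244 bp from Ndufb5, a subunit of complex I, which was at 55.55 RPKM and rose by 0.25. These pairs and those below were named after their values were seen.

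Over all genes tested, 49.4% were called higher and 24.4% lower. Of the 14 tested partner genes of tested members, 10 were called higher and 1 lower, with a median difference of 0.20. Mrpl46 and Mrps11, each the partner of the other, are members themselves and were both among the 10. The 1 called lower was Ncapd2, a condensin subunit, which starts 50 bp from Mrpl51, the 1 member called lower. Ncapd2 was at 70.7 and 48.4 RPKM in numbers 1 and 2 of passage 9 and, at passage 39, 68.9 and 47.9 RPKM, a difference of -0.53 (limma adjusted p = 1.04e-06). The recovered length of Mrpl51, 2790 bp, was the second longest of the members. Reads were counted without regard to strand and otherwise with default settings, so strand could not assign reads where gene models overlap. Whether these models overlap in the build used by the authors, and how such reads were counted, was not tested. Mrpl49, not called, starts 186 bp from Fau, whose product includes a cytosolic ribosomal protein, and Fau was at 47.1 and 59.6 RPKM and then at 50.25 and 51.2 RPKM, a difference of 0.18 (limma adjusted p = 0.0339). Mrps27, not called, starts 91 bp from Ptcd2, which was called higher (0.25, limma adjusted p = 0.00185). Members with a divergent partner had a median of 22.0 RPKM and a median difference of 0.28, compared with 24.3 RPKM and 0.32 for those without. Members with an ETS motif had a median of 30.9 RPKM and a difference of 0.31, compared with 23.6 RPKM and 0.31 for those without, and neither split was tested.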

How the data were processed

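The authors isolated RNA with TRIzol, selected poly(A) messages, made TruSeq libraries and sequenced single ends. They aligned reads to the rat genome (rn5) with STAR after FastQC, kept those that mapped to 1 place, and used HTSeq without strand for the count of each gene. The authors deposited RPKM values, 1 per gene symbol. The file names point to RefSeq gene models, whereas the methods name Ensembl, and the lengths and totals behind RPKM are not given in the sources used here. The authors used DESeq2 on counts for comparisons with mutants, which were not analysed here.

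From the RPKM values, library totals and the smallest whole number of reads of each gene were derived, for 20333 of 20333 genes above 0. A factor common to all libraries can stay hidden in a gene's reads and length. Its reads, length and chi-square values are then too small, and its intervals too wide. The recovered totals are larger than the number of reads per cell line that the methods give, for which no reason was found. Intervals are exact Clopper-Pearson or conditional binomial intervals at 95%, for counting error alone, because without molecular identifiers reads do not stand for independent molecules. Genes averaging 1 RPKM or more were tested by limma 3.58.1 (R 4.3.3, trend) on log2(RPKM + 1), with the adjusted p threshold at 0.05. Chi-square values used genes with at least 20 reads in the pair. Other steps used scipy 1.17.1, pandas 2.3.3, numpy 2.4.6 and matplotlib 3.10.9 in Python 3.11.15, and the steps were tested on simulated data.

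Groups follow the labels. The passage comparison has 1 population per passage and no test. Members and lists were chosen with earlier results of these data known. Named with values were the 5 highest and 3 lowest members of each subunit, members under 1 RPKM, median members and non-overlapping members by passage. The 5 largest rises by number were named too and, of up to 5 falls, the only member that fell, Mrpl51. Further names were Mrpl12 and S18 relatives, other-symbol proteins and up to 3 leading genes of each related list. Alternatives were other scalings, a pseudocount of 0.1 RPKM, other minimums, the length correction, a population block, and each library left out. Promoters and neighbours came from RefSeq tables of GRCr8, used for sequence and neighbours only. Protein sequences were not analysed here, and some genes that the rule covers are not reported here.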

Additional observations from a re-analysis of the deposited data

Results flagged for a closer look

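Ptcd3, a small subunit protein listed under another symbol, was the only gene named here whose difference between library numbers, number 2 minus number 1, pointed in opposite directions in the 2 populations. The difference was -0.00336 at passage 9 and 0.0356 at passage 39 on the log2(RPKM + 1) scale. The difference between the populations was not tested, and both values are small against the 0.33 median of the 69 members.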

How the results depend on the processing

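The values of 1 population per passage allow no error for passage, a gene listed at 0 can be a failed estimate, and the limma p-values rest on 2 libraries per number. No paired analysis was possible for the passage difference because each passage had 1 population and gave no test. For the number difference, the fit paired by population, with population as a block, gave the same counts, 66 higher and 1 lower. The 76 of 123 main values under an alternative that stayed close to those reported are not repeated, and the cause of the moves was not tested beyond what each setting does by construction.

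The members' median level of 23.6 RPKM became 70.7 with the common sum of 1000000, 23.5 with median-ratio scaling, 23.6 with recovered reads summed per population, 24.0 with the 10 genes under other or lower-case symbols added after seeing the data, and 21.8 to 25.5 without each library. Members that differed by 0.32 or more (log2) by passage numbered 0 to 3 without each library, with 3 without number 1 of passage 9 or number 2 of passage 39, and 1 without number 2 of passage 9. Members called higher in number 2 fell from 66 to 40 with the length correction, and those called lower were 4 with it and 2 with the common sum. The median number difference became 0.20 with the common sum, 0.24 with median-ratio scaling, 0.35 with a pseudocount of 0.1 RPKM, 0.11 with the length correction, and 0.32 to 0.35 without each library. The large to small log2 ratio of median levels was 0.30 to 0.36 without each library, and the large minus small median number difference, 0.04 as reported, was 0.0106 to 0.0341.

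With the common sum and median-ratio scaling, in that order, the median number differences of the related lists were 0.32 and 0.37 for cytosolic ribosomal proteins, 0.17 and 0.23 for oxidative phosphorylation, 0.11 and 0.16 for tRNA synthetases, 0.20 and 0.26 for proteins under other symbols, 0.11 and 0.16 for translation factors, 0.13 and 0.16 for assembly factors, 0.14 and 0.18 for mitochondrial DNA expression, and -0.0826 and -0.0255 for regulators. Without each library they were 0.29 to 0.31 for oxidative phosphorylation, 0.21 to 0.24 for tRNA synthetases, 0.34 to 0.39 for proteins under other symbols and 0.24 to 0.28 for assembly factors. Reversed signs were -0.0113 for Mrpl17, -0.0341 for Mrps26, -0.235 for Mrpl49 and -0.120 for Mrps27 with the length correction, -0.0980 for Mrpl49, -0.0638 for Mrps27 and -0.128 for Ptcd3 with the common sum, and -0.0405 for Mrpl49, -0.00751 for Mrps27 and -0.0697 for Ptcd3 with median-ratio scaling.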
